A study of Rattus norvegicus with 6 samples.

Results

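The axoneme and intraflagellar transport genes were followed across 3 circumventricular organs of the adult rat, the third ventricle's ependyma and total brain. They were the genes with a single annotated symbol on the array that starts with Dnah, Dnai, Dnal, Dnaaf, Dynlrb, Tekt, Cfap, Rsph, Spag, Spef, Drc, Odad, Ttll, Ift or Bbs, together with Hydin, Mlf1, Efcab10, Enkd1 and Fsip1. The rule found 74 genes among 12167 with a value on every array, and for each the probe with the highest mean over the 6 arrays was used. Of the 74 genes, 69 were found by the start of their symbol. The other 5 were added by name with earlier results of these data known, so their differences support nothing here, and the leading counts and medians are also given for the 69 alone.

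Motile cilia are hair-like organelles that beat on the cells lining the brain ventricles and move the cerebrospinal fluid. Their core, the axoneme, is a ring of microtubule doublets around a central pair. Outer and inner dynein arms slide the doublets, radial spokes and nexin links coordinate the arms, and tektins and other inner proteins stiffen the doublet wall. Intraflagellar transport trains carry parts along the axoneme, and the BBSome, a coat complex named for Bardet-Biedl syndrome, carries membrane proteins. Primary cilia of cells such as pinealocytes use the transport machinery but have no dynein arms, radial spokes or central pair.

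RNA of adult male Sprague-Dawley rats was amplified in 2 rounds and read on 6 microarrays of 1 colour, and all tissues but total brain were cut out by laser capture. One array each carried the subcommissural organ, a gland of tall ciliated cells in the ventricle roof, and the subfornical organ, a sensory organ of fluid balance. A further pair of arrays carried the pineal gland, which makes melatonin, and 1 array each carried the third ventricle's ependyma and a pool of total brain used as the reference. Each sample of the first 2 organs and of the ependyma pooled 2 (the labels do not say whether animals or sections), and the ependyma was cut from the wall away from both organs, per the labels. No strain difference, treatment or allele separated the samples, and whether the pineal gland pair stems from separate animals is not in the labels.

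Levels are the deposited intensities, which have no stated unit, and they are compared between arrays for 1 probe at a time. The exception is the cell type markers, whose levels are summed over genes, so that the brightest probes weigh most in a sum. A level of at least 1.05, the pooled median of all probes, is called measured here, and where the lower side of a comparison, or 1 of its arrays, is under it the fold is a bound against 1.05, written as at least so many fold. Differences of 4-fold or more were counted from levels raised to 0.142, the pooled 5th percentile, so a counted gene near background can have a bound under 4-fold. No test was made where both sides had 1 array. Since every sample was bulk tissue, fewer ciliated cells and less RNA per cell cannot be told apart.

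The promoters show a sequence feature that the choice of members did not use. RFX factors, which switch on genes for cilia, bind the X box, an inverted repeat with 2 arms. Promoters of 62 of the 74 genes were in the RefSeq table of the GRCr8 assembly, from 250 bases before to 50 after the first listed start. The arm GTTNCC lay on either strand in 49 of the 62 promoters (79.0%) and in 45.7% of 27457 promoters of all genes. A fuller X box, GTTNCC followed after 2 to 4 bases by GNAAC, lay in 11 of the 62 (17.7%) and in 412 of the 27457 (1.5%). Over every listed start in place of the first, the fuller X box lay in 11 of 63 promoters of these genes (17.5%) and in 1.56% of all 33469. The forkhead motif GTAAACA lay in 5 of the 62 (8.06%) and in 3.76% of all. Without the 5 genes added by name, 44 of 57 promoters held the arm (77.2%), 8 the fuller X box (14%) and 3 the forkhead motif (5.26%). These matches are a description of letters in 1 window and do not show that a factor binds there, and the GTTNCC of a fuller X box was also counted as an arm.

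All 11 fuller X boxes were in promoters of axonemal and other genes, 11 of 44 (25%; 8 of 39, 20.5%, without the genes added by name), and 0 of 18 promoters of transport and BBSome genes held one. The arm alone or in a pair lay in 16 of the 18 transport and BBSome promoters (88.9%) and in 33 of the 44 others (75%). The sites are printed with the X box in capitals, each turned so that GTTNCC comes first, because they let the spacing and the flanks be compared between genes of different roles:
Cfap20dc: ccctcaGTTGCCTGGGCAACggctca
Cfap45: tgacgcGTTACCACAGCAACcaagac
Dnaaf2: ctgggtGTTACCATGGCAACaaagca
Dnai2: ttaccgGTTGCCTAGCAACcctggc
Dynlrb2: tgcctgGTTTCCTAGCAACagggaa
Enkd1: ccatttGTTGCCAAGCAACagcaac
Fsip1: cttctaGTTGCCAGGGCAACagcgtt
Hydin: ccatctGTTGCCACAGCAACcgctag
Tekt2: gctctgGTTGCCTAGCAACcgcccc
Tekt4: ctcctgGTTGCCTCAGGAACattgta
Ttll9: ccttttGTTGCCGTGGCAACgagacg

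In 4 of these the arms are 2 bases apart, in Dnai2, Dynlrb2, Enkd1 and Tekt2, and in 7 they are 3 bases apart. In 10 of the 11 the site began before the listed start, by between 13 and 178 bases, and in Fsip1 it began at base 16 within the transcript.

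Whole promoters are shown for 3 genes with a fuller X box and different places in the axoneme, so that the distance from the box to the start can be seen. These are Dynlrb2, a dynein light chain (chr19:61428830-61429129, plus strand), Hydin, a central pair protein (chr19:55146216-55146515, plus strand), and Tekt2, a tektin (chr5:143907675-143907974, minus strand). Each is 300 bases of GRCr8 written along the gene's own strand, the start following base 250, with the fuller X box in capitals, which in Hydin and Tekt2 reads as the reverse complement of the site above:
Dynlrb2: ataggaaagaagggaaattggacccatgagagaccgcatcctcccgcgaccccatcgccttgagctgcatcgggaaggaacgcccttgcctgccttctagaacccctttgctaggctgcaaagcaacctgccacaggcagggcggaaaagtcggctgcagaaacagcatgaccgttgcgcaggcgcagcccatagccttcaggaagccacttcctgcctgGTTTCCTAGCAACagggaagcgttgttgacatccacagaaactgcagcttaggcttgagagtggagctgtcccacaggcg
Hydin: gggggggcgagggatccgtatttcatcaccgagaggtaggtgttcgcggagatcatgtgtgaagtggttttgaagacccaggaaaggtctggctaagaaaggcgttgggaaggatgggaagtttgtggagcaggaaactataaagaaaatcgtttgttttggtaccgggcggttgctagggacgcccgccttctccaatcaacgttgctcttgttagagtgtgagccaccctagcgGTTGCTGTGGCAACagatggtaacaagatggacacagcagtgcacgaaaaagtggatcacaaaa
Tekt2: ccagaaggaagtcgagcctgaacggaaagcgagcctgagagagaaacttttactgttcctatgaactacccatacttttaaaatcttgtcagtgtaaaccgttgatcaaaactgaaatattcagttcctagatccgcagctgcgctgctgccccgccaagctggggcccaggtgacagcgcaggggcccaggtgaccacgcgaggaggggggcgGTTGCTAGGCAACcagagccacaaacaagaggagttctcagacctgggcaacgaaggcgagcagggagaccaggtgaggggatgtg

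**Figure D1:**
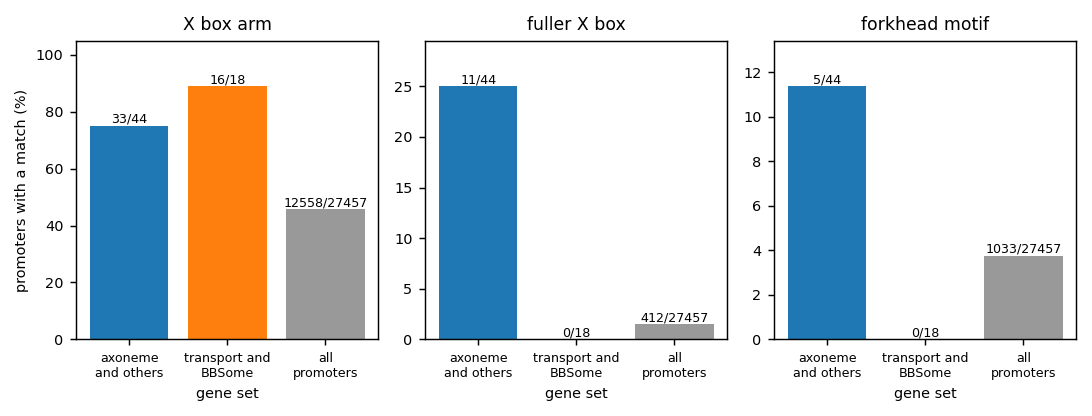
Share of promoters, in percent, that hold the X box arm, the fuller X box and the forkhead motif, with 1 panel per motif and its own scale. Bars stand for axonemal and other genes (44 promoters), transport and BBSome genes (18 promoters) and all promoters (27457), and the fuller X box reaches 25% in the first bar against 1.5% in the last.

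The summed level of 6 pineal gland markers was 1345 and 939.7 on the pineal gland arrays and at most 137 elsewhere. Summed over 3 subcommissural organ markers, the level was 384 in that organ, 35.8 in the subfornical organ, 22.1 and 15.2 on the pineal gland arrays, 206 in the ependyma and 34 in total brain. Of these Cuzd1 and Pax6 were at 116 and 26.7 in the subcommissural organ against 0.412 and 1.47 in the ependyma, while Msx1 was at 241 in the organ and 204 in the ependyma. The 3 markers of ciliated cells among the members, Dynlrb2, Tekt1 and Cfap126, summed to 839 in the subcommissural organ, 233 in the subfornical organ, 1.34 and 3.08 on the pineal gland arrays, 996 in the ependyma and 27.3 in total brain. Summed over 7 ependymal markers outside the members, the linings were again highest, with 1628 in the subcommissural organ and 1579.8 in the ependyma. The sum was 799 in the subfornical organ, 134 and 114 on the pineal gland arrays and 461 in total brain. Gene by gene, the median log2 difference of these 7 was -0.68 in the subcommissural organ against the ependyma. The probe of Foxj1, the factor that starts motile ciliation, was under 1.05 on all 6 arrays. The 8 choroid plexus markers summed to 412 in the subcommissural organ, 62 in the subfornical organ, 229 and 230.3 on the pineal gland arrays, 312 in the ependyma and 158 in total brain, with 4 measured in the subcommissural organ and 3 in the ependyma. Among them Calml4 was at 319 in the subcommissural organ and 225 in the ependyma against 22.4 in total brain, and Folr1 at 60.7 in the organ and 79.7 in the ependyma against 13.1 in total brain. Kcne2 was at 29.1 in the subcommissural organ and 0.495 in the ependyma, against 4.24 in total brain. Ttr, which the plexus makes in quantity, was at 1.61 in the subcommissural organ and 4.97 in the ependyma against 116 in total brain, and Kl, Clic6 and Aqp1 were under 1.05 on all 6 arrays. Neuron markers summed to between 68.3 and 170 outside total brain and 949 in it, and oligodendrocyte markers to 1322 in the subfornical organ and 1268 in total brain against 254 or less elsewhere. The part of these other cell types in the differences below was not tested.

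Most of these genes were highest in one or other of the ciliated linings, the subcommissural organ and the ependyma. The highest level was in the subcommissural organ for 32 genes, in the subfornical organ for 5, in the pineal gland for 2, in the ependyma for 30 and in total brain for 5. One of the linings was thus highest for 62 of 74 (83.8%), against 33.8% of all 12167 genes. The pineal gland was lowest for 38 of 74 (51.4%), against 25.7% of all genes. For 41 genes (55.4%) the subfornical organ lay between the linings and total brain, against 7.96% of all genes, and 27 of the 74 (36.5%, all genes 2.28%) ran in the full order of linings, subfornical organ, total brain and pineal gland. Without the genes added by name these counts were 57, 36, 37 and 25 of 69 (82.6%, 52.2%, 53.6% and 36.2%). That order held for 25 of 53 axonemal and other genes and for 2 of 21 transport and BBSome genes. On no array did Spag11a, Spag4, Dnaaf2 or Dnai4 reach 1.05, and 40 of the 74 genes reached it on all 6.

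**Figure D2:**
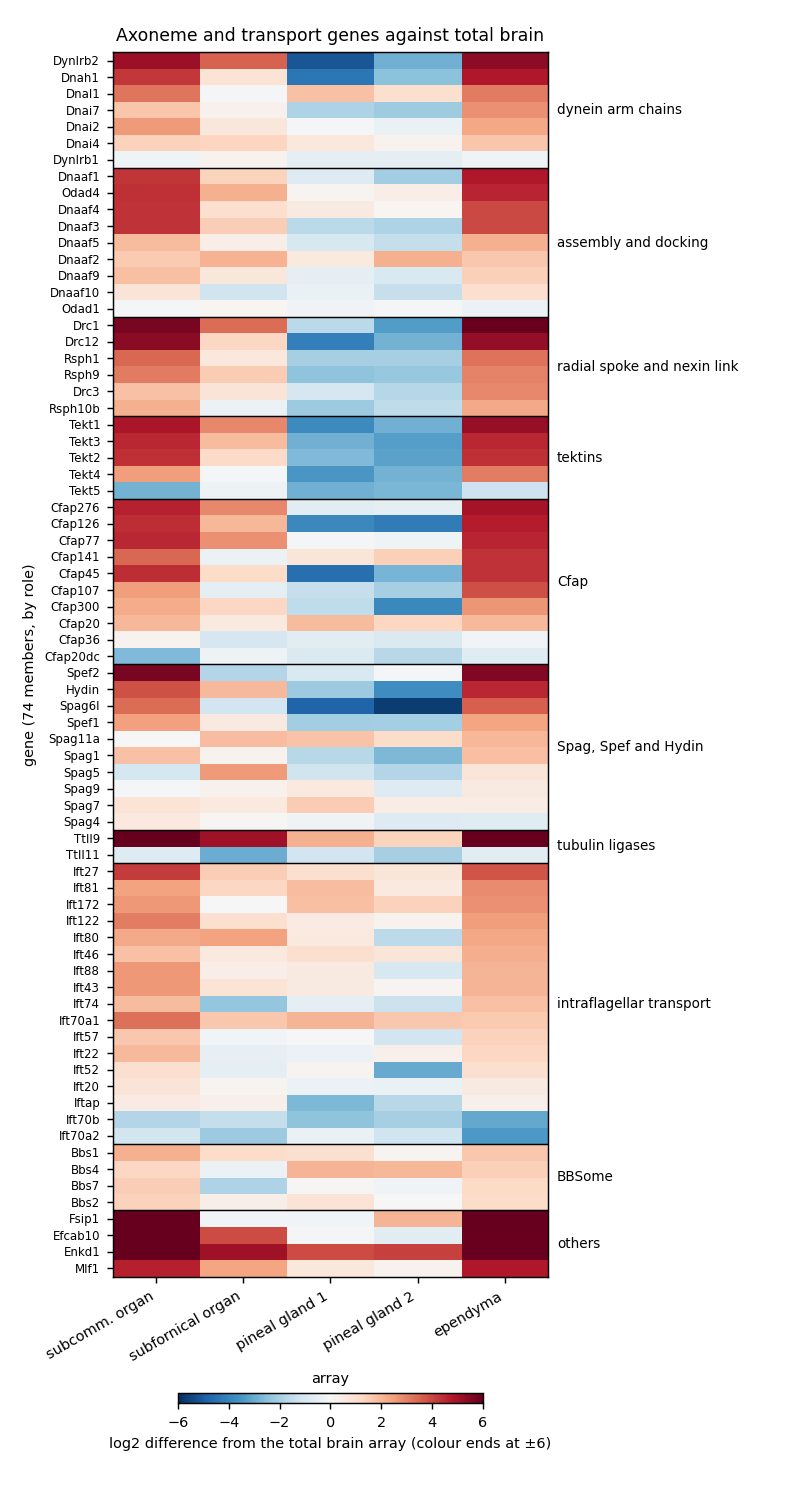
Log2 difference of each of the 74 genes from the total brain array, with arrays in columns and genes in rows grouped by role, red above and blue below total brain. The subcommissural organ and ependyma columns are mostly red, the subfornical organ is paler, and the pineal gland columns are blue for axonemal rows such as Dynlrb2 and Tekt1 and paler for most transport rows.

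The subcommissural organ and the ependyma were each set against total brain to see which cilium genes the ventricular lining holds above brain tissue at large. In the subcommissural organ 42 of the 74 genes were at least 4-fold higher and 2 lower, where 6.57% of all genes were higher and 11.2% lower. In the ependyma these counts were 44 and 2, where 5.6% of all genes were higher and 7.13% lower. The median log2 difference over the 74 was 2.45 in the subcommissural organ and 2.34 in the ependyma, while over all genes it was -0.19 in the subcommissural organ and -0.28 in the ependyma. Without the 5 genes added by name, 37 of 69 were higher in the subcommissural organ and 39 of 69 in the ependyma. With levels near background set at 1.05, the counts were 41 higher and 0 lower in the subcommissural organ and 43 higher and 0 lower in the ependyma. Of the 11 genes with a fuller X box, 9 were at least 4-fold higher in each lining, or 6 of 8 without Enkd1, Fsip1 and Hydin, which were added by name. Both exceptions, Cfap20dc and Dnaaf2, reached no more than 1.76 and 0.615 on any array. All comparisons with total brain share its single array, which has no replicate.

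Dynein arm chains differed by member. Dynlrb2, a roadblock light chain of dyneins found in ciliated cells, was at 489.9 in the subcommissural organ, 157 in the subfornical organ, 0.387 and 1.84 on the pineal gland arrays, 574 in the ependyma and 13.8 in total brain. It was 35.6-fold higher in the subcommissural organ and 41.7-fold higher in the ependyma than in total brain. Its close relative Dynlrb1, the roadblock chain of the cytoplasmic dynein that works in nearly every cell, was at 348 in the subcommissural organ, 484 in the subfornical organ, 282 and 283 on the pineal gland arrays, 339 in the ependyma and 412 in total brain. The 6 levels of Dynlrb1 all lay between 282 and 484, although probes of such close relatives can share signal. Dnai7, an axonemal dynein intermediate chain, was at 101 in the subcommissural organ, 38.3 in the subfornical organ, 8.97 and 7.33 on the pineal gland arrays, 213 in the ependyma and 32.4 in total brain. The ependyma was 6.6-fold above total brain for Dnai7 and the subcommissural organ 3.12-fold. The inner arm heavy chain Dnah1 and the outer arm intermediate chain Dnai2 were 18.9-fold and 5.78-fold higher in the subcommissural organ and 28.2-fold and 5-fold higher in the ependyma, both named after their values were seen. In all, 4 of 7 chains were at least 4-fold higher in the subcommissural organ and 5 of 7 in the ependyma.

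Assembly and docking factors, which build dynein arms in the cytoplasm and fix them to the doublets, were higher in part. Dnaaf1, a preassembly factor, was at 173 in the subcommissural organ, 21.9 in the subfornical organ, 5.12 and 2.04 on the pineal gland arrays, 245 in the ependyma and 8.74 in total brain. Both linings read above all other arrays for it, 19.8-fold higher in the subcommissural organ and 28.1-fold in the ependyma than in total brain. Dnaaf5, another preassembly factor, was at 96.9 in the subcommissural organ, 34.9 in the subfornical organ, 13.4 and 9.82 on the pineal gland arrays, 113 in the ependyma and 26.1 in total brain. Dnaaf9 was at 65 in the subcommissural organ, 29.3 in the subfornical organ, 12.9 and 9.77 on the pineal gland arrays, 49.8 in the ependyma and 18.5 in total brain, with 3.51-fold and 2.69-fold higher levels in the subcommissural organ and the ependyma that did not reach 4-fold. Odad4, Dnaaf4 and Dnaaf3 were 20.6-fold, 20.5-fold and 20.3-fold higher in the subcommissural organ and 23.7-fold, 15.7-fold and 15.7-fold in the ependyma. Of 9 factors, 4 were at least 4-fold higher in the subcommissural organ and 5 in the ependyma, and Odad1, a part of the outer arm docking complex, differed by at most 1.27-fold in either.

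Radial spoke and nexin link genes were higher almost throughout, 5 of 6 in the subcommissural organ and 6 of 6 in the ependyma. Drc12, a member of the nexin-dynein regulatory complex, was at 436 in the subcommissural organ, 24.2 in the subfornical organ, 0.606 and 1.44 on the pineal gland arrays, 402 in the ependyma and 10.3 in total brain. The linings exceeded total brain 42.2-fold in the subcommissural organ and 38.9-fold in the ependyma. Drc1, a scaffold of the same complex, was at 209 in the subcommissural organ, 41.2 in the subfornical organ, 1.3 and 0.401 on the pineal gland arrays, 248 in the ependyma and 4.03 in total brain. Drc1 was 52-fold higher in the subcommissural organ and 61.7-fold in the ependyma than in total brain, and among genes measured in total brain they were the largest of the 74 in both linings. Rsph1, a protein of the radial spoke head, was at 200.3 in the subcommissural organ, 28.5 in the subfornical organ, 4.68 and 4.69 on the pineal gland arrays, 176 in the ependyma and 18.6 in total brain. Drc3 was the member short of 4-fold in the subcommissural organ, at 3.42-fold.

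Among the tektins, filament proteins inside the doublet wall, 4 of 5 were at least 4-fold higher in each lining. Tekt1 was at 192 in the subcommissural organ, 47.1 in the subfornical organ, 0.453 and 0.848 on the pineal gland arrays, 233 in the ependyma and 6.33 in total brain. Tekt2 was at 183 in the subcommissural organ, 19.2 in the subfornical organ, 1.38 and 0.944 on the pineal gland arrays, 185 in the ependyma and 8.76 in total brain. Tekt4 was at 100.3 in the subcommissural organ, 16.1 in the subfornical organ, 1.54 and 2.47 on the pineal gland arrays, 145 in the ependyma and 17.5 in total brain. For each of these 3 the lining levels lay above every other array, by 5.74-fold to 30.3-fold over total brain in the subcommissural organ and by 8.28-fold to 36.9-fold in the ependyma. Tekt5 went the other way, at 0.477 in the subcommissural organ, 2.75 in the subfornical organ, 0.457 and 0.508 on the pineal gland arrays, 1.42 in the ependyma and 3.39 in total brain, so that it was at least 3.23-fold lower in the subcommissural organ and 2.39-fold lower in the ependyma, with no level above 3.39.

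Of 10 Cfap genes, 7 were at least 4-fold higher in each lining. Cfap45, an inner protein of the doublet, was at 469 in the subcommissural organ, 46.6 in the subfornical organ, 0.932 and 3.14 on the pineal gland arrays, 441 in the ependyma and 21.8 in total brain. Cfap77, also a doublet protein, was at 250.3 in the subcommissural organ, 73.3 in the subfornical organ, 9.89 and 9.13 on the pineal gland arrays, 259 in the ependyma and 10.8 in total brain. Cfap126, known as Flattop, was at 157 in the subcommissural organ, 28.7 in the subfornical organ, 0.502 and 0.4 on the pineal gland arrays, 189 in the ependyma and 7.25 in total brain. All 3 were highest in the linings, by between 21.5-fold and 23.2-fold in the subcommissural organ and between 20.3-fold and 26-fold in the ependyma. The other Cfap genes counted as higher were Cfap141, Cfap276, Cfap300 and Cfap107, from at least 4.1-fold to at least 21.4-fold in the subcommissural organ and from 6.36-fold to at least 27.9-fold in the ependyma. Cfap36 was at 120.5 in the subcommissural organ, 50.9 in the subfornical organ, 65.5 and 57.2 on the pineal gland arrays, 93.1 in the ependyma and 104 in total brain, with total brain between the linings. Cfap20dc, at 0.279 in the subcommissural organ, 1.45 in the subfornical organ, 0.971 and 0.565 on the pineal gland arrays, 1.06 in the ependyma and 1.76 in total brain, was counted as lower in the subcommissural organ, at least 1.68-fold by its bound.

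The group of Spag, Spef and Hydin genes was mixed, and the name Spag records only an antigen of sperm. Hydin, which projects from the central pair, was at 221 in the subcommissural organ, 61.1 in the subfornical organ, 3.52 and 1.2 on the pineal gland arrays, 367 in the ependyma and 15.8 in total brain. Spef1, which bundles the central pair microtubules, was at 106 in the subcommissural organ, 27.6 in the subfornical organ, 4.6 and 4.75 on the pineal gland arrays, 98.3 in the ependyma and 19.3 in total brain. Spag6l, another central pair protein, was at 99.8 in the subcommissural organ, 4.39 in the subfornical organ, 0.35 and 0.185 on the pineal gland arrays, 115 in the ependyma and 9.72 in total brain. For these 3 central pair genes both linings were well above total brain, from 5.5-fold for Spef1 to 14-fold for Hydin in the subcommissural organ and from 5.1-fold to 23.2-fold in the ependyma. Spef2 was at 25.5 in the subcommissural organ, -0.0714 in the subfornical organ, 0.258 and 0.45 on the pineal gland arrays, 22.7 in the ependyma and 0.488 in total brain. That made Spef2, also of the central pair, at least 24.3-fold higher in the subcommissural organ and at least 21.6-fold in the ependyma. Spag7 and Spag9, whose products are not known as axonemal parts, differed from total brain by less than 2-fold in both linings. In all, 4 of 10 were at least 4-fold higher in each lining.

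Tubulin ligases add amino acids to tubulin tails, and the array held 2 of them. Ttll9, a polyglutamylase of axonemal tubulin, was at 16.1 in the subcommissural organ, 4.79 in the subfornical organ, 0.625 and 0.357 on the pineal gland arrays, 18.3 in the ependyma and 0.141 in total brain. The difference was at least 15.4-fold in the subcommissural organ and at least 17.4-fold in the ependyma. Ttll11 was at 1.92 in the subcommissural organ, 0.413 in the subfornical organ, 1.48 and 0.808 on the pineal gland arrays, 2.07 in the ependyma and 3.24 in total brain, highest in total brain. The 4 genes outside these families were all higher in both linings. Mlf1 was at 149 in the subcommissural organ, 30.1 in the subfornical organ, 9.04 and 6.82 on the pineal gland arrays, 164 in the ependyma and 5.8 in total brain. Enkd1, an enkurin domain protein of centrioles and cilia, was at 103 in the subcommissural organ, 35.8 in the subfornical organ, 15.5 and 18.1 on the pineal gland arrays, 62.6 in the ependyma and 1.04 in total brain. Its total brain level lay just under 1.05, so the difference was at least 98.4-fold in the subcommissural organ and at least 59.6-fold in the ependyma. Efcab10 was at 73.1 in the subcommissural organ, 6.7 in the subfornical organ, 0.405 and 0.273 on the pineal gland arrays, 48.3 in the ependyma and 0.44 in total brain. Fsip1, named for the fibrous sheath of sperm, was at 22 in the subcommissural organ, 0.133 in the subfornical organ, 0.0597 and 0.657 on the pineal gland arrays, 21.4 in the ependyma and 0.158 in total brain. Outside the linings Efcab10 was measured in the subfornical organ and Fsip1 on no array.

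Intraflagellar transport genes were higher by less. Of 17, 8 were at least 4-fold higher in each lining, with a median log2 difference of 1.92 in the subcommissural organ and 1.74 in the ependyma. Ift22, a small GTPase of the IFT-B complex, was at 90.3 in the subcommissural organ, 16.9 in the subfornical organ, 18.5 and 29.2 on the pineal gland arrays, 56.3 in the ependyma and 23.8 in total brain. Ift20, an IFT-B subunit that also sits at the Golgi, was at 52.6 in the subcommissural organ, 33.9 in the subfornical organ, 24.1 and 23.4 on the pineal gland arrays, 44.3 in the ependyma and 30.4 in total brain. Ift46 was at 39 in the subcommissural organ, 17.5 in the subfornical organ, 22.7 and 19 on the pineal gland arrays, 52.9 in the ependyma and 11.6 in total brain. Across these 3 the linings were highest but total brain was well measured, and the largest difference among them was 4.57-fold, for Ift46 in the ependyma. Over the 17 the highest was Ift27, an IFT-B GTPase, at 18.2-fold in the subcommissural organ and 13.5-fold in the ependyma. Ift122 and Ift43 of the IFT-A complex, which returns cargo to the cell body, were 8.3-fold and 6.16-fold higher in the subcommissural organ and 5.68-fold and 4.07-fold higher in the ependyma. The genes Ift70a2 and Ift70b were at most 2.72 and 1.17 on any array and highest in total brain, and both were lower in the ependyma, at least 2.59-fold and at least 1.12-fold. The Ift70 genes are near copies of each other, so their probes may not tell them apart.

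Of the 4 BBSome genes, 1 was at least 4-fold higher in the subcommissural organ and 0 in the ependyma. Bbs1 was at 34.3 in the subcommissural organ, 17 in the subfornical organ, 15.2 and 8.87 on the pineal gland arrays, 23.8 in the ependyma and 7.85 in total brain. Bbs4, which also sits at centriolar satellites, was at 20.4 in the subcommissural organ, 6.71 in the subfornical organ, 35.4 and 33.4 on the pineal gland arrays, 22.8 in the ependyma and 8.53 in total brain. Bbs7 was at 9.9 in the subcommissural organ, 0.972 in the subfornical organ, 3.77 and 3.12 on the pineal gland arrays, 8.11 in the ependyma and 3.56 in total brain. Each was higher in both linings than in total brain, by 2.39-fold to 4.37-fold in the subcommissural organ and by 2.28-fold to 3.03-fold in the ependyma. As a set, the 53 axonemal and other genes had a median log2 difference of 3.14 in the subcommissural organ and 3.10 in the ependyma, and the 21 transport and BBSome genes one of 1.91 in the subcommissural organ and 1.59 in the ependyma. The 48 axonemal and other genes found by symbol alone had medians of 2.52 in the subcommissural organ and 2.93 in the ependyma.

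**Figure D3:**
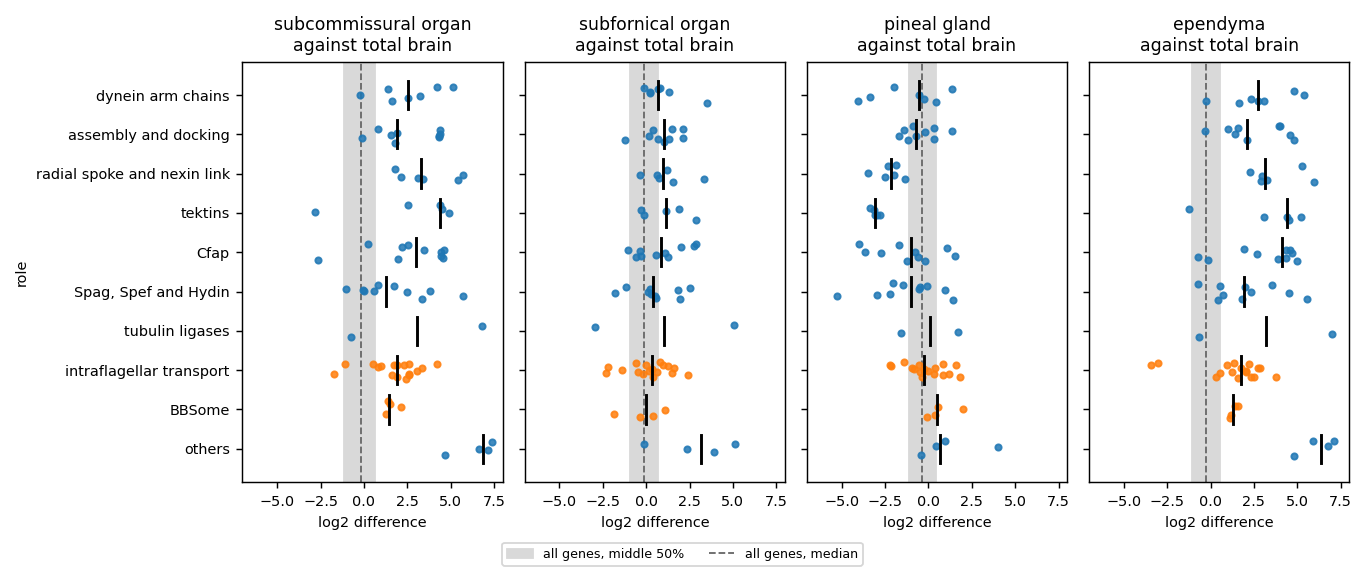
Log2 difference from total brain of each gene (1 point each), by role from top to bottom, in 4 panels for the subcommissural organ, the subfornical organ, the pineal gland (mean of both arrays) and the ependyma. Orange marks transport and BBSome genes, black bars are role medians, and the grey band is the interquartile range of all genes, which the tektins exceed on the right in both linings (median 4.38 in the subcommissural organ and 4.4 in the ependyma) and on the left in the pineal gland (median -3.10).

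The subfornical organ is covered by ependyma but consists mostly of neural tissue, and for 41 of the 74 genes it lay between the linings and total brain. Here 12 of the 74 genes were at least 4-fold higher than in total brain and 3 lower, where 5.45% of all genes were higher and 7.36% lower. The median log2 difference was 0.61, against -0.12 over all genes, and with quantile normalization 0.93, against 0.03 over all genes. Without the genes added by name, 9 of 69 were higher and 3 lower, and with levels near background set at 1.05 the 74 gave 12 higher and 1 lower. Dynlrb2 was 11.4-fold higher, Drc1 10.2-fold, Tekt1 7.45-fold, Cfap77 6.78-fold and Odad4, a docking factor, 4.41-fold. Each of these stood lower in the subfornical organ than in either lining. Enkd1 was at least 34.1-fold higher, Efcab10 at least 6.37-fold and Ttll9 at least 4.56-fold. A second probe of Ttll9 was at 0.737 in the subfornical organ against 0.945 in total brain, both under 1.05. Ift80, an IFT-B subunit, was 5.31-fold higher, at 31.5 in the subfornical organ against 5.92 in total brain, close to its 29.9 in the ependyma.

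Some genes did not follow the order of the linings in the subfornical organ. Spag5, which encodes astrin of the mitotic spindle and not an axonemal part, was at 10.8 in the subcommissural organ, 129 in the subfornical organ, 9.71 and 6.47 on the pineal gland arrays, 36.3 in the ependyma and 22 in total brain. Its level in the subfornical organ was the highest of the 6 and 5.85-fold above total brain, and it was picked for that value. Ift74, an IFT-B core subunit that binds tubulin, was at 31.1 in the subcommissural organ, 1.68 in the subfornical organ, 5.67 and 3.37 on the pineal gland arrays, 27.5 in the ependyma and 8.25 in total brain. That was 4.91-fold lower in the subfornical organ than in total brain, while both linings were above it. Ttll11 and Ift70a2 were the others counted as lower, at least 3.08-fold and at least 2.59-fold by their bounds. Oligodendrocyte and astrocyte markers summed to 1322 and 693 in this organ against 1268 and 411 in total brain, and their part in these values was not tested.

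**Figure D4:**
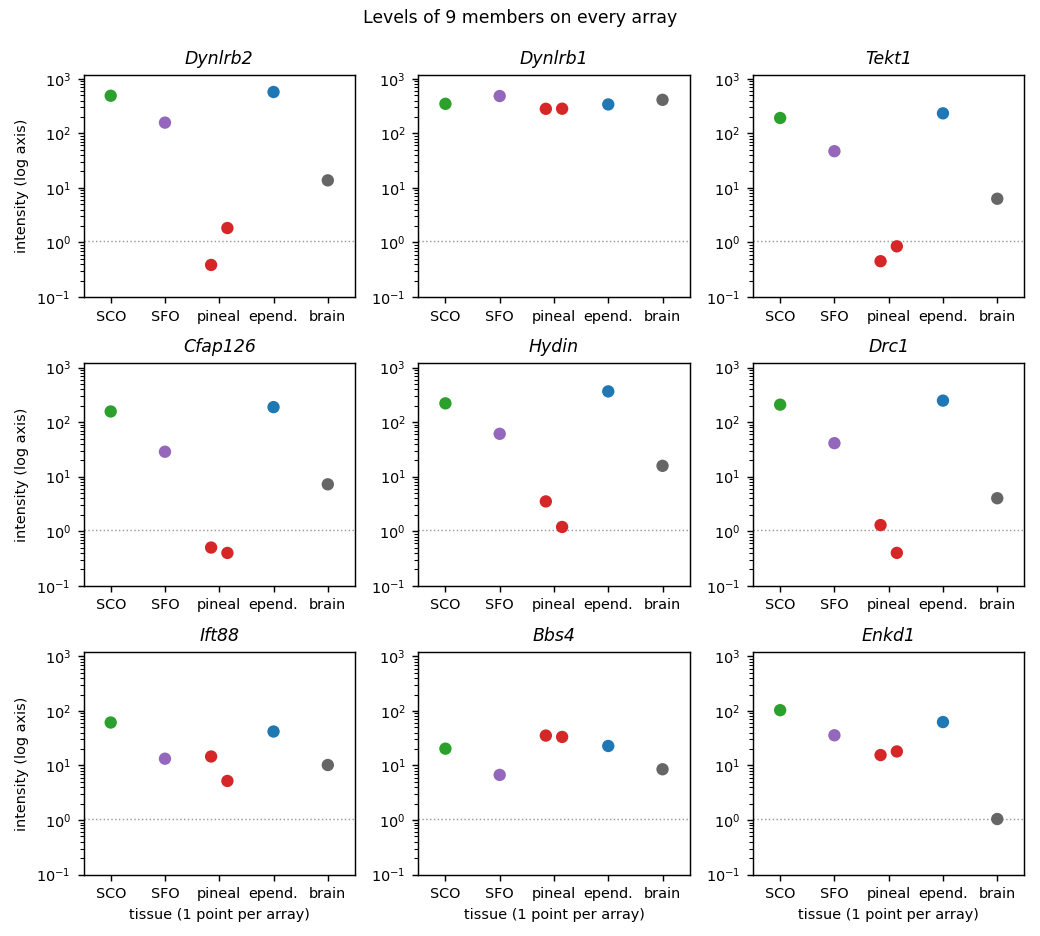
Intensity on a log axis of 9 genes on every array, 1 point per array, with tissues from left to right as subcommissural organ (SCO), subfornical organ (SFO), pineal gland, ependyma and total brain, and a dotted line at 1.05. Dynlrb2, Tekt1 and Cfap126 step down from the linings to the pineal gland, Dynlrb1 is level, and Bbs4 is highest on the pineal gland arrays.

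In the pineal gland part of the motile axoneme genes were lower than in total brain, and few transport genes passed the test. By limma, with Benjamini-Hochberg adjusted p under 0.05, 22 of the 74 genes fell and 2 rose with 63 tested, and without the genes added by name 21 of 69 fell and 1 rose with 60 tested. Of all tested genes 16.3% fell and 7.72% rose. A gene was tested where either side reached 1.05, and 10 of the 63 were under it on both pineal gland arrays, so they entered through total brain and could be called only as falls. They made up 8 of the 22 falls. With every gene tested, 8 of the 74 fell and 1 rose (8 and 0 of the 69), where 5.51% of all genes fell and 2.86% rose. By size, 19 of the 74 were at least 4-fold lower and 2 higher, where 10.8% of all genes were lower and 5.1% higher. Without the genes added by name it was 18 of 69 lower and 1 higher. The median log2 difference was -0.59 over the 74 genes and -0.35 over all genes, and with the floor at 1.05 it was -0.30 over the 74 and 0 over all genes. It was -1.25 for the 53 axonemal and other genes, of which 17 were at least 4-fold lower, and -0.04 for the 21 transport and BBSome genes, of which 2 were. For the 48 axonemal and other genes found by symbol it was -1.40, with 16 lower. With every gene tested by limma, 8 of the 53 and 0 of the 21 fell. Both pineal gland arrays were under 1.05 for 20 of the 74 genes (27.0%, all genes 29.7%), which were 19 of 53 axonemal and other genes (35.8%) and 1 of 21 transport and BBSome genes (4.76%).

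All 5 tektins fell, as did 5 of 6 radial spoke and nexin link genes, 3 of 7 dynein arm chains (5 tested), 3 of 10 Cfap genes (8 tested) and 4 of 10 of the Spag, Spef and Hydin group (7 tested). Among these falls Tekt1, Tekt3, Tekt5, Rsph10b, Dnah1, Cfap126 and Spag6l were under 1.05 on both pineal gland arrays. They entered through total brain and could be called only as falls. With the floor at 1.05, 3 of the 5 tektins stayed at least 4-fold lower by size. None of 9 assembly and docking factors (8 tested) passed limma's test, and 2 of them had an unadjusted p under 0.05. Spag6l, at 0.35 and 0.185 on the pineal gland arrays against 9.72 in total brain, had the largest fall by limma (log2 difference -5.26 ± 0.73 (SE), adjusted p = 2.13e-11), while its dim second probe was at 0.271 and 0.426 on the pineal gland arrays against 0.278 in total brain. Next were Dynlrb2 (log2 difference -4.03 ± 0.73 (SE), adjusted p = 5.57e-07) and Cfap126 (log2 difference -4.02 ± 0.73 (SE), adjusted p = 6.04e-07). The Dynlrb2 call was lost with every gene tested, with quantile normalization and with the floor at 1.05 (adjusted p = 0.058, 0.107 and 0.167 by limma). Spag6l and Cfap126 stayed called with every gene tested (adjusted p = 0.00951 and 0.016 by limma) and with quantile normalization (0.0196 and 0.021). With the floor at 1.05 limma called 0 of all 9340 tested genes, with a smallest adjusted p of 0.0916. The Spag6l and Cfap126 calls were lost there (adjusted p = 0.0933 and 0.0942 by limma). All 3 were near background on at least 1 pineal gland array, so as bounds Spag6l fell at least 9.25-fold, Dynlrb2 at least 9.9-fold and Cfap126 at least 6.9-fold. Hydin, at 3.52 and 1.2 in the pineal gland against 15.8 in total brain, was 7.71-fold lower. Tekt4 fell 8.95-fold, Tekt2 at least 7.28-fold and Cfap45 at least 12-fold, and Dynlrb1 was 1.46-fold lower without passing the test.

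Among transport genes the fallers were Ift70b, near background, and Iftap, a binding partner of the IFT-A complex, at 1.99 and 4.07 on the pineal gland arrays against 12.8 in total brain. A dimmer probe of Iftap read 6.99 and 5.96 in the pineal gland against 8.03 in total brain. Bbs4 rose 4.03-fold, with 35.4 and 33.4 on the pineal gland arrays, the highest of the 6, against 8.53 in total brain (log2 difference 2.01 ± 0.73 (SE), adjusted p = 0.0267 by limma). This call was lost with every gene tested (adjusted p = 0.113) and with the floor at 1.05 (adjusted p = 0.102), where limma called no gene. The other gene counted as risen was Enkd1, at least 16-fold higher, one of those added by name. At 1.04 in total brain, Enkd1 entered through the pineal gland arrays and could be called only as a rise. Ift172, the largest IFT-B subunit, was at 8.79 and 6.65 in the pineal gland against 2.55 in total brain, 3-fold higher. Cfap20 was at 83.3 and 52.3 in the pineal gland against 22.4 in total brain, 2.95-fold higher, and neither passed the test. These 2 genes were named after their values were seen.

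The test rests on the spread between the pineal gland pair, which gives 1 residual degree of freedom and the same standard error, 0.73, for every gene, so a call was in effect a log2 difference of at least 1.83. With quantile normalization 6 of 63 tested members fell by limma, where 643 of all 9081 tested genes fell. Without the filter on low values 8 of the 74 fell, where 5.51% of all genes did. With the floor at 1.05 none of the members passed by limma (22 of 64 tested had an unadjusted p under 0.05). Of all 9340 genes tested there, 0 passed and 2484 had an unadjusted p under 0.05. Between 13 and 22 members were at least 4-fold lower by size in all of the alternatives.

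Most of these genes were lower in the pineal gland than in the ependyma. By limma 47 of the 74 genes fell and 1 rose with 69 tested, and without the genes added by name 42 of 69 fell and 1 rose with 64 tested. Of all tested genes 13% fell and 7.32% rose. Of the 69 tested members, 15 were under 1.05 on both pineal gland arrays, entered through the ependyma and could be called only as falls, and they made up 13 of the 47. With every gene tested, 35 of the 74 fell and 0 rose (31 and 0 of those found by symbol), where 3.81% of all genes fell and 2.19% rose. By size 44 of the 74 were at least 4-fold lower and 1 higher, where 8.63% of all genes were lower and 4.84% higher. The median log2 difference was -2.62, against -0.11 over all genes. Without the genes added by name it was 40 of 69 lower. The median was -4.39 over the 53 axonemal and other genes (-4.25 over the 48 found by symbol) and -1.35 over the 21 transport and BBSome genes. With every gene tested 34 of the 53 and 1 of the 21 fell.

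Dynlrb2 fell at least 413-fold, Drc12 at least 327-fold and Cfap45 at least 243-fold. Tekt1 fell at least 222-fold, Drc1 at least 213-fold, Cfap126 at least 179.7-fold and Spag6l at least 109.7-fold. For all of these limma's log2 difference was between -9.41 and -8.01 with a standard error of 0.72. Of these, Tekt1, Cfap126 and Spag6l were under 1.05 on both pineal gland arrays. They entered through the ependyma and could be called only as falls. Dynlrb2, Drc12, Drc1 and Cfap45 were under 1.05 on 1 pineal gland array. Of the 9 assembly and docking factors (8 tested) 7 fell, among them Dnaaf1 by 75.8-fold and Dnaaf5 by 9.85-fold. Transport genes that fell included Ift74 by 6.28-fold, Ift88, an IFT-B core subunit, by 4.81-fold and Ift122 by 4.48-fold. Of the 4 BBSome genes none passed limma's test, with 0 at an unadjusted p under 0.05, and Bbs4 was 1.51-fold higher in the pineal gland. Enkd1 was 3.73-fold lower than in the ependyma, and so stood between the ependyma and total brain. The gene that rose, Ift70a2, was near background, at 2.04 and 1.17 in the pineal gland against 0.248 in the ependyma. Being under 1.05 in the ependyma, Ift70a2 entered through the pineal gland arrays and could be called only as a rise.

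Astrocyte markers summed to 22.4 and 16.1 on the pineal gland arrays against 375 in the ependyma, and their part in these falls was not tested. With the floor at 1.05 none of the members passed limma's test (46 of 69 tested had an unadjusted p under 0.05). By size 43 of the members were at least 4-fold lower. Of all 9272 genes tested with that floor, 0 passed and 2149 had an unadjusted p under 0.05.

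The subcommissural organ and the ependyma were close for these genes. Of the 74 genes, 1 was at least 4-fold higher in the subcommissural organ and 0 lower, where 3.66% of all genes were higher and 5.77% lower. That gene, Ift70a2, lay near background, at 1.26 in the subcommissural organ against 0.248 in the ependyma, and it was not counted with a filter at the pooled 75th percentile or with levels near background set at 1.05. The median log2 difference was -0.01, with an SD over genes of 0.71, against 0.03 and 1.30 over all genes. Among genes measured in both linings the SD was 0.53 over 66 of these genes and 1.01 over all 7412, and 0 of the 66 differed 4-fold against 6.23% of the 7412. There is 1 array on each side, so the differences have no replicate check, and the SD over genes is not a replicate error.

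The transport and BBSome genes leaned to the subcommissural organ, with a median log2 difference of 0.27 and 16 of 21 higher there, where 51.5% of all genes were. The axonemal and other genes leaned to the ependyma, with a median of -0.14 and 21 of 53 higher in the subcommissural organ (-0.17 and 18 of 48 without the genes added by name). With levels near background set at 1.05 these medians were 0.26 for the transport and BBSome genes and -0.05 for the 53, and the difference between the groups of genes was not tested. Ift22 was at 90.3 in the subcommissural organ against 56.3 in the ependyma, and Ift88 at 61.4 in the organ against 42 in the ependyma. Hydin was at 221 in the subcommissural organ against 367 in the ependyma, and Dnai7 at 101 in the organ against 213 in the ependyma. All 4 differences were 2.11-fold or less.

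**Figure D5:**
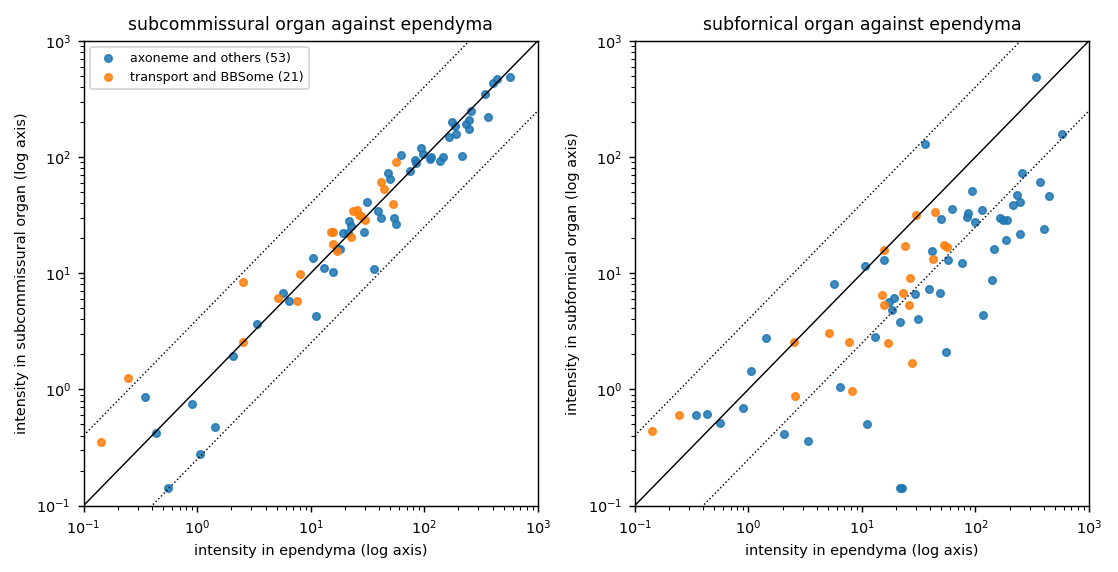
Intensity of each of the 74 genes on log axes, the ependyma on the horizontal axis and the subcommissural organ (left) or the subfornical organ (right) on the vertical axis, with the line of equality and dotted lines at 4-fold. Points of the subcommissural organ lie along the line of equality, while 33 points of the subfornical organ lie at least 4-fold below it.

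In the subfornical organ 33 of the 74 genes were at least 4-fold lower than in the ependyma and 0 higher, where 5.02% of all genes were lower and 5.12% higher. The median log2 difference was -1.79, against 0.12 over all genes, and without the genes added by name 29 of 69 were lower. It was -2.21 for the axonemal and other genes (-2.13 without those added by name) and -1.54 for the transport and BBSome genes. Spag6l was 26.3-fold lower, at 4.39 in the subfornical organ against 115 in the ependyma. Drc12 was 16.6-fold lower, Ift74 16.4-fold and Dnah1 15.9-fold. Spef2 and Fsip1 were not measured in the subfornical organ, which gave bounds of at least 21.6-fold and at least 20.4-fold. Dynlrb2 was 3.64-fold lower and Enkd1 1.75-fold, both short of 4-fold, and Dynlrb1 and Spag5 were 1.43-fold and 3.55-fold higher.

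Genes of the cilium outside the members were read from 6 fixed lists. Their counts stand against the shares of all genes given above, 6.57% at least 4-fold higher in the subcommissural organ, 5.45% in the subfornical organ and 5.6% in the ependyma. By limma in the pineal gland 16.3% of all tested genes fell and 7.72% rose against total brain. Of 10 cilia transcription factors on the array, 3 were at least 4-fold higher in the subcommissural organ and 3 in the ependyma than in total brain, and 0 in the subfornical organ. In the pineal gland 0 were higher and 1 lower, with 6 measured. Rfx2, an RFX factor that binds the X box, was at 44 in the subcommissural organ, 22 in the subfornical organ, 1.41 and 0.36 on the pineal gland arrays, 44.7 in the ependyma and 6.98 in total brain. It fell in the pineal gland by limma, at least 5.74-fold against total brain. The probe of Rfx3, another RFX factor, was under 1.05 on every array, and Rfx1 was 5.37-fold higher in the subcommissural organ and 5.84-fold in the ependyma.

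Of 17 transport motors and subunits with other names, counted without 3 listed genes that are themselves members, 5 were at least 4-fold higher in the subcommissural organ and 1 lower, and in the ependyma 4 were higher and 1 lower. Dync2h1, the heavy chain of the dynein that returns trains to the cell body, was 5.94-fold higher in the subcommissural organ and 5.51-fold in the ependyma than in total brain. Kif3c, a kinesin of neurons, was 8.15-fold lower in the subcommissural organ, 14-fold lower in the pineal gland and 6.03-fold lower in the ependyma. Against total brain in the pineal gland 4 of the 17 fell and 1 rose by limma, with 16 tested. The one that rose was Arl6, the small GTPase that recruits the BBSome to membranes, at 65.7 and 44.9 on the pineal gland arrays against 6.76 in total brain, 8.04-fold.

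Transition zone genes, which gate the base of the cilium, were higher in 8 of 15 cases in the subcommissural organ and 7 of 15 in the ependyma, and lower in 0. In the pineal gland 2 of the 15, all of them tested, rose by limma against total brain and 0 fell. Of all tested genes 7.72% rose, and 2 of 15 are too few to read as a trait of the list. Mks1 was at 21.1 and 14.3 in the pineal gland against 4.44 in total brain, and Invs at 2.69 and 3.43 in the pineal gland against 0.745 in total brain. Being under 1.05 in total brain, Invs entered through the pineal gland arrays and could be called only as a rise. Of 12 basal body and centriole genes, 5 were at least 4-fold higher in the subcommissural organ and 3 in the ependyma. With 11 tested by limma, 2 fell in the pineal gland, a share near that of all genes. Of 17 other motile cilium genes, again without 3 that are members, 12 were at least 4-fold higher in the subcommissural organ, 6 in the subfornical organ and 11 in the ependyma. By limma 4 of these fell and 1 rose in the pineal gland, with 12 tested. Meig1, needed for sperm formation, was at least 45.4-fold higher in the subcommissural organ and at least 42.1-fold in the ependyma. Of 5 genes of tubulin modification other than the ligases, 1 was at least 4-fold lower in the subcommissural organ and 0 differed 4-fold in the ependyma.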

How the data were processed

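The table deposited by the authors holds a linear intensity for each probe on each array, judged from the values. The scanner, software, background correction and scaling are not given in the sources used here, and array medians lay between 1.04 and 1.07. All 6 arrays had a value for 34963 of 35129 probes, and -9999 was taken as missing. A platform annotation gave 16865 probes 1 symbol, 165 several, 18099 were not listed, and 16836 identifiers were found in the RefSeq gene table (GRCr8). The authors' intensities were raised to a floor of 0.142, the pooled 5th percentile, and log2 was taken with no further scaling. Measured means that the higher side was at or above 1.05, the pooled median. A call was at least 4-fold, and for the pineal gland the mean log2 with both arrays on the same side.

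The pineal gland was also tested against total brain and the ependyma with limma 3.58.1 in R 4.3.3 (lmFit, then eBayes; two-sided p-values adjusted by Benjamini-Hochberg over all measured genes, threshold 0.05). All 6 arrays entered with 1 mean for each tissue. Single arrays were taken to vary as the pineal gland pair does, so p-values measure only the spread between that pair, which may be technical. The number of arrays limits the precision.

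The members, lists and motifs were chosen with earlier results of these data known. Named by rule were the 3 members of highest mean level per role, the 5 members added by name, the 3 markers of ciliated cells, and per comparison the 3 of largest difference in each direction among those called. From each list at most 4 genes per comparison were named. Other members named, among them Ift27, Ift122, Ift43, Ift88, Ift80, Odad1, Odad4, Drc3, Spag7 and Spag9, were chosen after their values were seen. Alternatives were quantile normalization, no filter or a filter at the 75th percentile, the floor at 1.05, the mean over all probes of a gene, and leaving out each pineal gland array. Of the 74 members, 18 had several probes.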

Additional observations from a re-analysis of the deposited data

How the results depend on the processing

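No paired analysis was possible because only the pineal gland has replicate arrays. The count of axoneme and transport genes that fell by limma in the pineal gland against total brain was 22, and it was 6 with quantile normalization, 8 without the filter and 0 with the floor at 1.05. Over all genes 1476 of 9077 tested fell, 643 of 9081 with quantile normalization and 670 of 12167 without the filter. Against the ependyma the count of axoneme and transport genes was 47, 35 without the filter and 0 with that floor. With that floor limma called 0 of all genes in either comparison. Its unadjusted p was under 0.05 for 22 of the axoneme and transport genes against total brain and 46 against the ependyma. Among all tested genes this held for 2484 of 9340 and 2149 of 9272. The smallest adjusted p there was 0.0916 against total brain and 0.119 against the ependyma. The 1 gene at least 4-fold higher in the subcommissural organ than in the ependyma became 0 with the filter at the 75th percentile and with the floor at 1.05. That gene, Ift70a2, was at 1.26 in the subcommissural organ, under the 75th percentile of 6.04. In the ependyma it was at 0.248, under the floor of 1.05. The cause of the changed limma counts was not tested. Without either pineal gland array, the genes at least 4-fold lower numbered 17 to 22 against total brain (median log2 difference -0.95 to -0.41) and 40 to 47 against the ependyma (-3.02 to -2.36), values with no test.

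Counts of the direction that few genes took also changed. The 2 genes at least 4-fold lower than in total brain became 0 in the subcommissural organ and in the ependyma with the 75th percentile filter and with the floor, and 1 in the subcommissural organ with the mean over probes. The 3 lower in the subfornical organ became 1 with that filter and with the floor and 2 with quantile normalization, the 2 higher in the pineal gland became 3 with quantile normalization, and the 1 higher there than in the ependyma became 0 with that filter and with the floor. The other 4-fold counts with all arrays lay within 1.5 times those reported, and medians kept their sign except that of the subcommissural organ against the ependyma, which lay between -0.01 and 0.02. Against total brain, 38 to 51 were at least 4-fold higher in the subcommissural organ, 11 to 15 in the subfornical organ and 40 to 48 in the ependyma. Quantile normalization moved the median of all genes from -0.35 to 0.00 in the pineal gland and from -0.28 to -0.05 in the ependyma against total brain, and the share of higher calls among all genes from 32.2% to 44.7% and from 44.0% to 56.1%. Relative to all genes the median of the 74 was then -0.35 in the pineal gland (-0.24 before) and 2.76 in the ependyma (2.62 before). A second probe measured on at least 1 array pointed the other way for Ttll9, 1 of 2 such called genes of the subfornical organ against total brain, and for Spag6l in the pineal gland (1 of 5 against total brain, 1 of 8 against the ependyma) and in the subfornical organ against the ependyma (1 of 3). It did so for none of 7 in the subcommissural organ or of 6 in the ependyma against total brain. Levels near background limit any fold above them.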

Other observations

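A few cilium genes outside the members differed between the subcommissural organ and the ependyma by more than most members did, and they were picked after their values were seen. Ccdc33 was at 7.76 in the subcommissural organ against 61.8 in the ependyma, 7.96-fold lower. Lrrc36 was at 10.1 in the subcommissural organ against 49.4 in the ependyma, 4.89-fold lower, and Ccdc78, which helps multiply centrioles in multiciliated cells, at 5.66 in the organ against 50.4 in the ependyma, 8.9-fold lower. In the other direction, Ccno, a cyclin of multiciliated cell differentiation, was at 18.2 in the subcommissural organ against 3.72 in the ependyma, 4.89-fold higher. Deup1, a scaffold of the deuterosome on which such cells build centrioles, was at 71.7 in the organ against 20.2 in the ependyma, 3.55-fold higher. Each side had 1 array, so these differences have no replicate check.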
